A study of Mus musculus with 30 samples.

Results

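Tight junctions seal the space between epithelial cells, and the polarity complexes beside them keep the apical surface apart from the rest of the membrane. The 8 genes described here code for parts of both: the claudins Cldn6 and Cldn7 and the tetraspan proteins Ocln and Marveld3 of the junctional strand, the adhesion receptor F11r (JAM-A), the scaffold Tjp1 (ZO-1), the plaque protein Cgn (cingulin) and the apical determinant Crb3 of the Crumbs complex. They were taken by symbol, as 8 of the 12428 genes in the deposited table, and each was measured in all 30 libraries. The genes were not picked by a cut on their values, but they were chosen with earlier results of these data known. All 8 passed the filter on low values, Marveld3 only through the group in which it was highest.

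RNA was measured by QuantSeq, in which each transcript yields a short read close to its 3′ end, in naive mouse embryonic stem cells (C57BL/6J x 129) grown with serum, LIF and inhibitors of MEK and GSK3. The cells carried GRHL2-ERT, the grainyhead transcription factor GRHL2 joined to a receptor domain that tamoxifen binds, and were set against cells in ethanol, the solvent. There were 10 groups of 3 libraries. Double-KO GRHL2-ERT cells (Kmt2cKO and Kmt2dKO) had tamoxifen or ethanol for 8 h or 16 h, and Kmt2c-KO GRHL2-ERT cells (Kmt2cKO with floxed Kmt2d, written Kmtd fl/fl in the labels) had the same. For Kmt2c-KO cells that lacked the transgene there was tamoxifen alone, for 8 h or 16 h. All groups carry the Kmt2c deletion, and cells with intact Kmt2c were not analysed here. KMT2C and KMT2D are histone methyltransferases of enhancers, and tamoxifen is used to bring an ERT fusion protein into the nucleus. The GRHL2-ERT lines were selected clones per the series design, so line and clone cannot be told apart. Nothing in the labels ties the replicate numbers to separate cultures. Each p therefore covers only the spread among these libraries, which may be technical.

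Claudins are the four-pass proteins that form the paracellular seal, and occludin and the other MARVEL-domain proteins lie in the same strands. Both groups hold on to cytoplasmic scaffolds such as ZO-1, to which cingulin binds and which links the junction to actin. CRB3 sits at the apical membrane and recruits PALS1 and PATJ, and JAM-A binds the PAR3 polarity complex. GRHL2 is known in epithelia as an activator of junction genes, several claudins among them.

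The depth recovered from the spacing of low values ran from 8.83 to 22.1 M reads per library, with a median of 16.2 M. At these depths 3 reads in a library come to 0.136 to 0.340 CPM (counts scaled to a common library total), a floor that covers counting error only. All 10 embryonic stem cell markers were measured, and their summed level was 5081 to 12328 CPM in the 30 libraries. It was lowest in the double-KO libraries, at 5102 to 5234 CPM in double-KO cells in ethanol for 8 h, against 8219 to 9839 CPM in Kmt2c-KO cells. The primitive endoderm list, with 6 of 9 genes measured, went the other way in the same groups, at 27.6 to 33.4 CPM in double-KO cells against 5.94 to 8.51 CPM in Kmt2c-KO cells. Such sums are weighted to their highest genes. Over the 30 libraries Dppa5a of the stem cell list ran from 751 to 9151 CPM, and Dab2 of the endoderm list from 0.375 to 32.4 CPM. Single markers were not compared between groups, so the sums do not show that a list changed as a whole. Of the trophectoderm list 6 of 9 genes were measured, and of the fibroblast list 3 of 8, which summed to at most 5.64 CPM. The tags for Kmt2c ran from 9.47 to 32.8 CPM although every line is labelled Kmt2cKO. Those for Kmt2d ran from 5.77 to 13.6 CPM in double-KO and from 6.13 to 23.4 CPM in Kmt2c-KO libraries. A 3′ tag outside the deleted part does not check a knockout, and the labels do not name the deleted exons. The 3 libraries of double-KO cells in tamoxifen for 8 h stood apart, with mean correlations of 0.965, 0.938 and 0.952 to the others of their group, under a limit of 0.968. They are the whole of their group, so no double-KO response at 8 h can be had without them.

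The promoters of Cgn, Cldn6 and Crb3 are shown here because GRHL2 binds DNA directly. Among the 8 members their tamoxifen responses at 8 h differed most between the lines, although the difference of Crb3 did not pass the test. The sequences are RefSeq promoter windows of GRCm38.p6, from 250 bases before to 50 bases after a RefSeq transcript start, and 7 of the 8 members had 10 such windows, of which the pairs of Crb3 and of Ocln overlap. The windows were searched on both strands for AACCGGTT, the full grainyhead site, for its looser form AACNNGTT, and for CACCTG, the E-box bound by SNAIL and ZEB repressors. Capitals mark AACNNGTT in Cgn (chr3:94786433-94786732, minus strand) and CACCTG or its reverse complement CAGGTG in Cldn6 (chr17:23679115-23679414, plus strand) and Crb3 (chr17:57061951-57062250, plus strand). Tjp1 (chr7:65371195-65371494, minus strand) is shown as a member whose level did not pass the test in any tamoxifen comparison, and none of these motifs is in its window. The windows of Tjp1 and Crb3 lie within the gene models given below and not at their outer ends, and other transcript starts of these genes were not searched.
Cgn: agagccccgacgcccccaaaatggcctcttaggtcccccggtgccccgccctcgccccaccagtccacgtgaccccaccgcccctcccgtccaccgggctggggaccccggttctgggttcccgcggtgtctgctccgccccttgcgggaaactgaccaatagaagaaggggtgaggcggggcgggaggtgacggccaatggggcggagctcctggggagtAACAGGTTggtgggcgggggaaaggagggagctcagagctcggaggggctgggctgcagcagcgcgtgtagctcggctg
Cldn6: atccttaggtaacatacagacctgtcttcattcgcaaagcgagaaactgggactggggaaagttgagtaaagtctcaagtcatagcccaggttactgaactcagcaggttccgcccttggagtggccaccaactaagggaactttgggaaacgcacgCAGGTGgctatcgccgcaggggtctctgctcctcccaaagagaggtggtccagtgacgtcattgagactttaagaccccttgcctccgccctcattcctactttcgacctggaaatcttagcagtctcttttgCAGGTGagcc
Crb3: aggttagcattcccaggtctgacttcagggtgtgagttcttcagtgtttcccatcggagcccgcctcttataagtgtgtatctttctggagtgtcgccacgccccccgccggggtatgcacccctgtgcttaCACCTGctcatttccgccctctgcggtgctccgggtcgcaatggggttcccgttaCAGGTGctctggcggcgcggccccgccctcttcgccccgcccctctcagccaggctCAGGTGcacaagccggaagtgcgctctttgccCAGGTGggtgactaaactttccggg
Tjp1: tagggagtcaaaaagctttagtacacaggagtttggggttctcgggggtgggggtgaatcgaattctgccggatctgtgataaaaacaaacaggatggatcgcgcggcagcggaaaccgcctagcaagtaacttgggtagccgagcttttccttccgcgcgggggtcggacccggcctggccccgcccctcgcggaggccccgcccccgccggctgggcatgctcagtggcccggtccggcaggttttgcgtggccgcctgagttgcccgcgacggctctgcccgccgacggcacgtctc

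AACCGGTT was found in 0 of the 10 windows, and 0.146% of 32851 promoters of this length held it. AACNNGTT was found in 1 window, that of Cgn, where AACAGGTT began 29 bases before the transcript start, and 4.2% of all promoters held it. CACCTG was found in 7 windows of 5 members, Cldn6, Cldn7, Ocln, F11r and Crb3, and 20.2% of all promoters held it. The Crb3 window shown holds it 4 times, and 0.0548% of all promoters held it at least 4 times. A match of letters is no measured binding, and its absence covers only these windows.

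Beside the promoters, the gene models of GENCODE M21 on mm10 place the members on 7 chromosomes. Cldn6 lies at chr17:23679249-23682446 and Crb3 at chr17:57059105-57065918, both on the plus strand. Cldn7 (chr11:69964779-69967885) and F11r (chr1:171437535-171464603) are also on the plus strand. Cgn (chr3:94760069-94786492), Marveld3 (chr8:109947914-109962203), Tjp1 (chr7:65296165-65527781) and Ocln (chr13:100496507-100552718) are on the minus strand. The Crb3 model overlaps the protein-coding genes Slc25a23 and Dennd1c on the other strand, and whether reads were counted by strand was not given in the sources used. Without strand, reads from a stretch that Crb3 shares with these neighbours cannot be told apart.

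**Figure D1:**
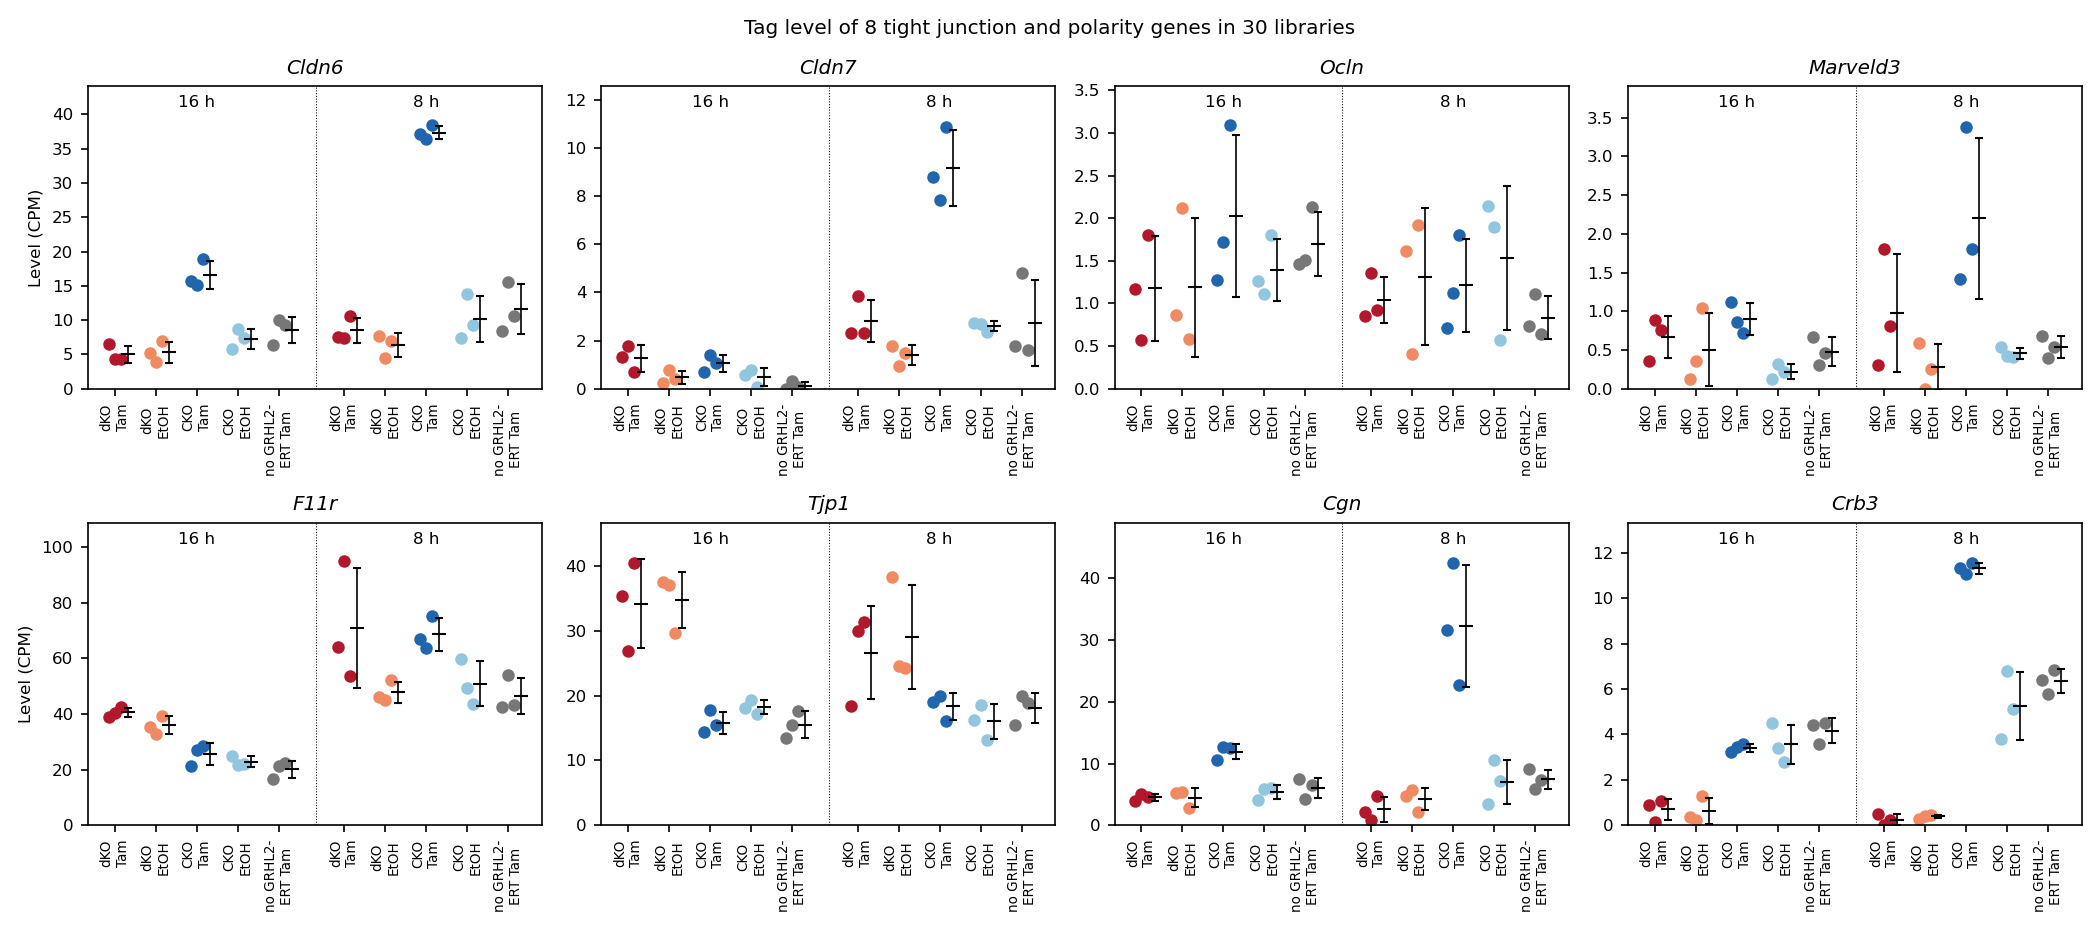
Tag level in CPM (vertical axes, each from 0) of the 8 genes in each of the 30 libraries, with 16 h left of 8 h. dKO is double-KO, CKO is Kmt2c-KO, Tam is tamoxifen and EtOH is ethanol; points are libraries, and the bar beside them is the mean ± SD of 3. The 3 Kmt2c-KO libraries in tamoxifen for 8 h stand above every other library for Cldn6, Cgn, Cldn7 and Crb3, while the double-KO libraries stand above the Kmt2c-KO ones for Tjp1 at 16 h.

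The first comparison asked what tamoxifen did in Kmt2c-KO cells with GRHL2-ERT within 8 h. The claudin genes Cldn6 and Cldn7, the strand gene Marveld3, the plaque gene Cgn and the polarity gene Crb3 rose, to between 2.16 and 4.82 times their mean in ethanol. In limma, 5 of the 8 members rose and 0 fell at an adjusted p under 0.05, where 2.92% of the 12414 genes tested rose and 2.04% fell. In 6 members every tamoxifen library was above every ethanol library, as in 13.0% of all genes tested. Marveld3, in both counts, met the filter on low values only through this tamoxifen group, so it adds no independent support. The adhesion receptor F11r, the scaffold Tjp1 and occludin (Ocln) did not pass the test. The median log2 fold change was 1.05 over the 8 members and 0.03 over all genes tested. The members were chosen with earlier results of these data known, so their shares and medians beside those of all genes are no independent test. A change in RNA of a bulk culture cannot tell fewer cells with the RNA and less RNA per cell apart. Values were compared as log2(CPM + 1), a scale that understates the change of low genes, and errors beside log2 fold changes are SE.

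Cldn6, a claudin of early embryonic epithelia, had 37.1, 36.5 and 38.4 CPM in tamoxifen libraries, against 7.38, 13.8 and 9.33 CPM in ethanol libraries. All 3 tamoxifen libraries lay close together and far above the highest ethanol library. The log2 fold change was 1.82 ± 0.24, with an adjusted p of 1.2e-05 in limma. Cldn7, an epithelial claudin, had 8.80, 7.83 and 10.9 CPM in tamoxifen libraries, against 2.74, 2.69 and 2.35 CPM in ethanol libraries. The groups did not overlap, and the log2 fold change was 1.49 ± 0.27 (limma, adjusted p = 0.00080). With a pseudocount of 0.1 CPM in place of 1 CPM the adjusted p of Cldn7 was 0.069, and over the 6 fits without 1 library it was at most 0.0087.

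Marveld3, a MARVEL-domain protein of the strand, had 1.42, 3.38 and 1.80 CPM in tamoxifen libraries, against 0.535, 0.429 and 0.405 CPM in ethanol libraries. These were 116 reads in the 3 tamoxifen libraries together, against 21 reads in the 3 ethanol libraries. The tamoxifen mean of 2.20 CPM was its only group mean to reach 1 CPM, the limit of the filter. One group lay wholly above the other, with tamoxifen replicate 2 well above its fellow libraries, and the log2 fold change was 1.09 ± 0.26 (limma, adjusted p = 0.010). Without replicate 2 the adjusted p was 0.11, and with a pseudocount of 0.1 CPM it was 0.086. Ocln, which codes for occludin, had 0.711, 1.13 and 1.80 CPM in tamoxifen libraries, against 2.14, 1.90 and 0.568 CPM in ethanol libraries. The groups overlapped across most of their range at 7 to 39 reads per library, and the log2 fold change was -0.16 ± 0.31 (limma, adjusted p = 0.83).

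Cgn, whose product cingulin lies in the junctional plaque, had 31.7, 42.5 and 22.7 CPM in tamoxifen libraries, against 3.45, 10.6 and 7.14 CPM in ethanol libraries. The lowest tamoxifen library was still above the highest ethanol library, although both groups were spread wide. Cgn had the largest log2 fold change of the 8 members, 2.11 ± 0.35 (limma, adjusted p = 0.00037), and its mean was 4.57 times that in ethanol. Tjp1, which codes for the scaffold ZO-1, had 19.0, 20.0 and 16.1 CPM in tamoxifen libraries, against 16.3, 18.6 and 13.2 CPM in ethanol libraries. The groups overlapped, and the log2 fold change was 0.19 ± 0.19 (limma, adjusted p = 0.64). F11r, which codes for JAM-A, had 66.7, 63.6 and 75.3 CPM in tamoxifen libraries, against 59.7, 49.2 and 43.6 CPM in ethanol libraries. All 3 tamoxifen libraries were higher than the ethanol libraries, but the log2 fold change of 0.43 ± 0.16 did not pass the test (limma, adjusted p = 0.13). The F11r result passed when the 3 libraries that stood apart were left out of the shared estimate of spread (adjusted p = 0.030) and with array weights (0.038).

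Crb3 had 11.3, 11.1 and 11.5 CPM in tamoxifen libraries, against 3.81, 6.80 and 5.11 CPM in ethanol libraries. The tamoxifen libraries were nearly equal and all above the ethanol libraries, and the log2 fold change was 1.01 ± 0.24 (limma, adjusted p = 0.0098). The genes that overlap Crb3 on the other strand did not pass the test: the log2 fold change was -0.10 ± 0.26 for Slc25a23 (limma, adjusted p = 0.88) and 0.01 ± 0.27 for Dennd1c (0.99). Without ethanol replicate 1 the adjusted p of Crb3 was 0.081, and with a pseudocount of 0.1 CPM it was 0.26. Another measure differed between the same groups. The Rn45s tags of ribosomal RNA were lower in tamoxifen libraries, with a log2 fold change of -0.73 ± 0.21 (limma, adjusted p = 0.039). The summed trophectoderm list overlapped between these groups, and its difference was not tested. It was 126.9 to 137.8 CPM in tamoxifen libraries, against 93.3 to 128.5 CPM in ethanol libraries, with Cdx2, Elf5 and Hand1 not analysed here. The part of the Rn45s tags and of this list in these results was not tested. Grhl2 tags themselves were 170 ± 16.4 CPM in tamoxifen and 178 ± 28.3 CPM in ethanol (SD, n = 3 each).

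Tamoxifen with and without GRHL2-ERT was compared in Kmt2c-KO cells, using the same tamoxifen libraries as above. At 8 h Cldn6 had 37.1, 36.5 and 38.4 CPM in cells with GRHL2-ERT, against 8.44, 15.6 and 10.7 CPM in cells without the transgene. Cgn had 31.7, 42.5 and 22.7 CPM with GRHL2-ERT, against 9.08, 5.85 and 7.32 CPM without it, and Crb3 had 11.3, 11.1 and 11.5 CPM with it, against 6.39, 5.78 and 6.84 CPM without it. In all 3 genes every library with GRHL2-ERT was above every library without it. In limma 5 of the 8 members were higher with GRHL2-ERT and 0 were lower, where 2.67% of all genes tested were higher and 1.39% lower. For 6 members the groups did not overlap, as for 12.5% of all genes in this direction. The log2 fold change was 1.65 ± 0.24 for Cldn6 (adjusted p = 4.0e-05), 1.96 ± 0.35 for Cgn (0.00077), 1.53 ± 0.27 for Cldn7 (0.00050), 1.01 ± 0.26 for Marveld3 (0.020) and 0.55 ± 0.16 for F11r (0.047). F11r passed the test in 1 of 6 fits that left out a library, and Marveld3 in 3 of 6. Marveld3 met the filter on low values only through this group with GRHL2-ERT. F11r did not pass under median-of-ratios scaling (adjusted p = 0.067), and with a pseudocount of 0.1 CPM neither F11r (0.054), Cldn7 (0.060) nor Marveld3 (0.14) did. Crb3 was higher in every library with GRHL2-ERT, but its log2 fold change of 0.75 ± 0.24 did not pass the test (limma, adjusted p = 0.076). It passed with a pseudocount of 5 CPM (adjusted p = 0.0012), with the 6 libraries of the comparison alone (0.0087) and with array weights (0.026). Ocln and Tjp1 overlapped between the groups.

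GRHL2-ERT cells in ethanol were also set against cells without the transgene in tamoxifen, where the transgene and the agent both differ. At 8 h, 0 of the 8 members passed the test in limma, where 0.105% of all genes tested passed in either direction. An unadjusted p under 0.05 was seen in 0 members and in 9.18% of all genes. At 16 h, 0 of 8 members passed in limma, where 0.169% of all genes passed, and 0 members and 6.81% of all genes had an unadjusted p under 0.05. The log2 differences of the members lay between -0.26 and 0.41 at 8 h and between -0.27 and 0.37 at 16 h. The Grhl2 tags differed widely between these groups, at 178 ± 28.3 CPM in GRHL2-ERT cells in ethanol and 2.66 ± 0.831 CPM in cells without the transgene at 8 h (SD, n = 3 each).

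**Figure D2:**
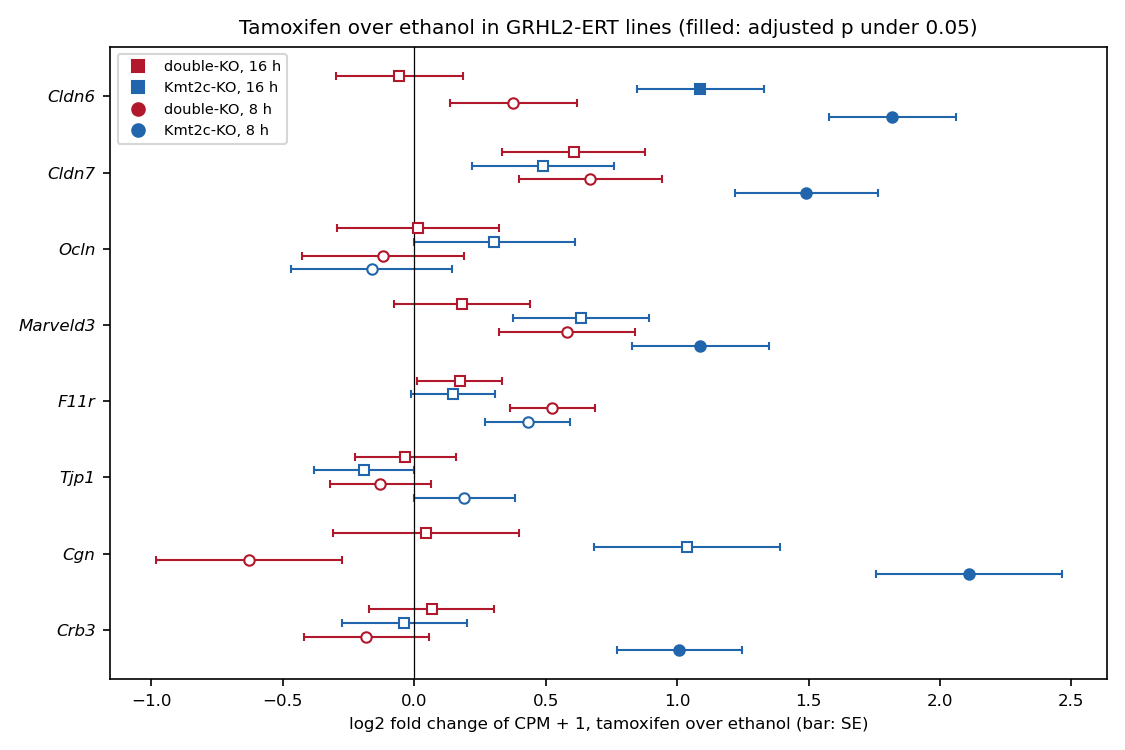
Log2 fold change of CPM + 1, tamoxifen over ethanol (horizontal axis), of the 8 genes in double-KO (red) and Kmt2c-KO (blue) GRHL2-ERT cells at 16 h (squares) and 8 h (circles). Bars are SE and filled symbols passed the test; the 5 filled circles are Kmt2c-KO at 8 h, and the filled square is Cldn6 in Kmt2c-KO at 16 h.

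At 16 h in Kmt2c-KO GRHL2-ERT cells, Cldn6 was the member that rose, to 2.27 times its mean in ethanol. In limma 1 of 8 members rose and 0 fell, where 0.290% of all genes tested rose and 0.00806% fell. In 3 members all tamoxifen libraries were higher, as in 7.20% of all genes. Cldn6 had 15.7, 15.1 and 18.9 CPM in tamoxifen libraries, against 5.83, 8.73 and 7.34 CPM in ethanol libraries. No ethanol library reached the lowest tamoxifen library, and the log2 fold change was 1.09 ± 0.24 (limma, adjusted p = 0.038). The call was lost in each of the 6 fits that left out 1 library, with adjusted p between 0.059 and 0.30.

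Cgn had 10.6, 12.7 and 12.5 CPM in tamoxifen libraries, against 4.06, 5.88 and 6.11 CPM in ethanol libraries at 16 h. Every tamoxifen library was above every ethanol library, but the log2 fold change of 1.04 ± 0.35 did not pass the test (limma, adjusted p = 0.47). With the 6 libraries of this comparison fitted alone the adjusted p of Cgn was 0.00045, and with array weights it was 0.0032. Marveld3 had 1.13, 0.858 and 0.714 CPM in tamoxifen libraries, against 0.127, 0.318 and 0.216 CPM in ethanol libraries. All tamoxifen libraries were higher, at 41 reads in all in tamoxifen and 9 reads in ethanol, and the log2 fold change was 0.64 ± 0.26 (limma, adjusted p = 0.79). Crb3 had 3.23, 3.43 and 3.57 CPM in tamoxifen libraries, against 4.50, 3.41 and 2.80 CPM in ethanol libraries. These overlapped, and the log2 fold change was -0.04 ± 0.24 (limma, adjusted p = 1.0). Cldn7 had 0.675, 1.41 and 1.07 CPM in tamoxifen libraries, against 0.571, 0.794 and 0.0719 CPM in ethanol libraries, with a log2 fold change of 0.49 ± 0.27. The groups overlapped, as they did for F11r, Tjp1 and Ocln, whose log2 fold changes were 0.15 ± 0.16, -0.19 ± 0.19 and 0.30 ± 0.31.

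Whether the response at 16 h differed from that at 8 h was tested as a difference of responses. In Kmt2c-KO cells 0 of 8 members passed in limma, where 0.0644% of all genes passed in either direction, and 4 members and 6.36% of all genes had an unadjusted p under 0.05. The differences, 16 h minus 8 h, were -1.05 ± 0.34 for Crb3 (adjusted p = 0.46), -1.07 ± 0.50 for Cgn (0.77), -1.0 ± 0.38 for Cldn7 (0.63) and -0.73 ± 0.34 for Cldn6 (0.77). So the smaller number of calls at 16 h was not shown to be a smaller response. With a pseudocount of 5 CPM the difference passed in limma for Cldn7 (adjusted p = 0.037) and Crb3 (0.024). That setting shrinks the response of a low level more. In ethanol Cldn7 was 0.479 CPM at 16 h and 2.59 CPM at 8 h, and Crb3 was 3.57 and 5.24 CPM. So these 2 calls cannot tell a smaller response from a lower starting level. In double-KO cells 0 of 8 members and 0% of all genes passed in limma, and 0 members and 5.75% of all genes had an unadjusted p under 0.05.

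At 16 h, tamoxifen with GRHL2-ERT against without gave 0 of 8 calls in limma, where 0.644% of all genes were higher and 0.330% lower. An unadjusted p under 0.05 was seen in 4 members and in 8.67% of all genes. In 4 members all libraries with GRHL2-ERT were higher, as in 9.60% of all genes. Cldn6 had 15.7, 15.1 and 18.9 CPM with GRHL2-ERT, against 6.38, 9.99 and 9.30 CPM without it. These did not overlap, and the log2 fold change was 0.89 ± 0.24 (limma, adjusted p = 0.079). It passed when the libraries that stood apart were left out of the estimate of spread (adjusted p = 0.032), with a pseudocount of 5 CPM (0.048), with the libraries of the comparison alone (0.0087) and with array weights (0.0082), and over its left-out libraries the adjusted p ran from 0.11 to 0.44. Cldn7 had 0.675, 1.41 and 1.07 CPM with GRHL2-ERT, 50 reads in all in the 3 libraries, against 0, 0.303 and 0.0664 CPM without it, 5 reads in all in the 3 libraries. Its log2 fold change was 0.86 ± 0.27 (limma, adjusted p = 0.16), and it passed with a pseudocount of 0.1 CPM (0.018) and with array weights (0.022).

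In double-KO GRHL2-ERT cells tamoxifen changed none of the 8 members past the test at either time. At 8 h, 0 of 8 members passed in limma, where 0.0644% of all genes tested rose and 0.0322% fell, and 3 members and 20.3% of all genes had an unadjusted p under 0.05. For 2 members, Cldn7 and F11r, all tamoxifen libraries were higher, as for 3.83% of all genes. At 16 h, 0 of 8 members passed in limma, where 0.0322% of all genes rose and 0.00806% fell, and 1 member and 4.18% of all genes had an unadjusted p under 0.05. Under median-of-ratios scaling 0.0887% rose and 0.0161% fell at 8 h, and 0.0242% rose and 0% fell at 16 h. The median log2 fold change at 8 h was 0.13 over the members and -0.07 over all genes tested.

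Cldn6 had 7.52, 7.34 and 10.6 CPM in double-KO tamoxifen libraries at 8 h, against 7.69, 4.44 and 6.99 CPM in ethanol libraries. The groups overlapped, and the log2 fold change was 0.38 ± 0.24 (limma, adjusted p = 0.37). Cgn had 2.20, 0.790 and 4.78 CPM in tamoxifen libraries, against 4.80, 5.67 and 2.18 CPM in ethanol libraries. The groups overlapped, and the log2 fold change was -0.63 ± 0.35 (limma, adjusted p = 0.30). Crb3 had 0.489, 0 and 0.217 CPM in tamoxifen libraries, 12 reads in all, against 0.294, 0.408 and 0.456 CPM in ethanol libraries, 24 reads in all. At so few reads a fall or a small rise within double-KO cells was not detectable, and the log2 fold change was -0.18 ± 0.24.

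Cldn7 had 2.32, 3.84 and 2.33 CPM in double-KO tamoxifen libraries at 8 h, against 1.76, 0.952 and 1.47 CPM in ethanol libraries. The groups did not overlap, but the log2 fold change of 0.67 ± 0.27 did not pass the test (limma, adjusted p = 0.19). F11r had 64.0, 95.0 and 53.7 CPM in tamoxifen libraries, against 45.9, 45.1 and 52.1 CPM in ethanol libraries. Each tamoxifen library was higher, and the log2 fold change was 0.52 ± 0.16 (limma, adjusted p = 0.15). Without tamoxifen replicate 3, F11r passed as higher (adjusted p = 0.0052) and Cgn as lower (0.028). F11r at 95.0 CPM came from replicate 2, the library with the lowest depth, 8.83 M reads, and with 7.37% of reads on Rn45s. Marveld3 had 0.306, 1.81 and 0.814 CPM in tamoxifen libraries, against 0.587, 0 and 0.253 CPM in ethanol libraries, with overlap. Tjp1 and Ocln overlapped between the groups as well, with log2 fold changes of -0.13 ± 0.19 and -0.12 ± 0.31.

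At 16 h in double-KO cells, Cldn6 had 6.48, 4.30 and 4.28 CPM in tamoxifen libraries, against 5.15, 3.83 and 6.94 CPM in ethanol libraries. Cgn had 3.93, 5.03 and 4.64 CPM in tamoxifen libraries, against 5.27, 5.42 and 2.79 CPM in ethanol libraries. Both overlapped, with log2 fold changes of -0.06 ± 0.24 and 0.05 ± 0.35. Cldn7 had 1.31, 1.78 and 0.676 CPM in tamoxifen libraries, against 0.248, 0.766 and 0.389 CPM in ethanol libraries. These overlapped at 0.676 and 0.766 CPM, and the log2 fold change was 0.61 ± 0.27 (limma, adjusted p = 1.0). All 8 members overlapped between tamoxifen and ethanol at 16 h in this line, where 7.45% of all genes were higher and 5.97% lower without overlap.

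The responses of the lines were compared directly, as the response of double-KO cells minus that of Kmt2c-KO cells. At 8 h Cgn and Cldn6 had a smaller response in double-KO cells, 2 of 8 members, where 0.902% of all genes tested differed in that direction. In the other direction 0 members and 0.524% of all genes differed. The difference was -2.74 ± 0.50 for Cgn (limma, adjusted p = 0.0044) and -1.44 ± 0.34 for Cldn6 (0.029). Crb3 had a difference of -1.19 ± 0.34 (limma, adjusted p = 0.062) and Cldn7 of -0.82 ± 0.38 (0.18), which did not pass, although with a pseudocount of 5 CPM both did (0.0066 and 0.044). A larger pseudocount shrinks the response of a low level more. In ethanol Crb3 was 0.386 CPM in double-KO and 5.24 CPM in Kmt2c-KO cells, and Cldn7 was 1.39 and 2.59 CPM. These calls therefore cannot tell a smaller response from a lower starting level. The difference was 0.09 ± 0.23 for F11r, -0.51 ± 0.37 for Marveld3, -0.32 ± 0.27 for Tjp1 and 0.04 ± 0.44 for Ocln. With the 12 libraries of this comparison alone the adjusted p was 0.30 for Cgn and 0.31 for Cldn6. With array weights it was 0.23 for Cgn and 0.80 for Cldn6. Leaving out 1 library at a time kept Cgn past the test in all 12 fits and Cldn6 in 5 of 12.

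Grhl2 tags, which may come from the transgene and from the gene itself, differed between the lines at 8 h. They were 78.3 ± 40.8 CPM in double-KO cells in tamoxifen and 170 ± 16.4 CPM in Kmt2c-KO cells in tamoxifen (SD, n = 3 each). In ethanol they were 41.2 ± 10.1 CPM in double-KO cells and 178 ± 28.3 CPM in Kmt2c-KO cells, a log2 difference of -2.10 ± 0.25 (limma, adjusted p = 1.5e-07). Tags for the estrogen receptor gene Esr1 differed too, and were 3.39 ± 0.397 CPM in cells without the transgene at 8 h. In tamoxifen for 8 h they were 7.91 ± 7.44 CPM in double-KO and 53.6 ± 11.3 CPM in Kmt2c-KO GRHL2-ERT cells. At 16 h they were 30.6 ± 1.93 and 61.2 ± 2.60 CPM (SD, n = 3 each). Whether Esr1 tags come from the transgene was not tested. The part of the transgene level in the members' responses was not tested. At 16 h Grhl2 tags were nearer, at 57.5 ± 11.5 CPM in double-KO cells and 77.5 ± 11.5 CPM in Kmt2c-KO cells in tamoxifen. At that time 0 of 8 members differed in response in limma, where 0% of all genes passed, and 1 member and 2.54% of all genes had an unadjusted p under 0.05. The difference at 16 h was -1.14 ± 0.34 for Cldn6 and -0.99 ± 0.50 for Cgn, both with an adjusted p of 1.0 in limma.

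In ethanol the lines also differed, with Crb3 lower and Tjp1 higher in double-KO cells at both times. Crb3 had 0.294, 0.408 and 0.456 CPM in double-KO cells in ethanol for 8 h, against 3.81, 6.80 and 5.11 CPM in Kmt2c-KO cells. Its mean in Kmt2c-KO cells was 13.6 times that in double-KO cells, and the log2 fold change was -2.14 ± 0.24 (limma, adjusted p = 3.1e-08). At 16 h Crb3 had 0.372, 0.236 and 1.30 CPM in double-KO cells, against 4.50, 3.41 and 2.80 CPM in Kmt2c-KO cells. At neither time did the groups overlap, and at 16 h the log2 fold change was -1.52 ± 0.24 (limma, adjusted p = 6.5e-06). Of the overlapping genes, Dennd1c was also lower in double-KO cells, at a log2 fold change of -0.92 ± 0.27 at 8 h (limma, adjusted p = 0.0066), while Slc25a23 was at 0.61 ± 0.26 (0.054). At 16 h Dennd1c was lower, at -0.86 ± 0.27 (limma, adjusted p = 0.0098), and Slc25a23 higher, at 0.96 ± 0.26 (0.0033).

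Tjp1 had 38.3, 24.6 and 24.2 CPM in double-KO cells in ethanol for 8 h, against 16.3, 18.6 and 13.2 CPM in Kmt2c-KO cells. The log2 fold change was 0.80 ± 0.19 (limma, adjusted p = 0.0012). At 16 h Tjp1 had 37.6, 37.0 and 29.7 CPM in double-KO cells, against 18.1, 19.3 and 17.1 CPM in Kmt2c-KO cells, a log2 fold change of 0.89 ± 0.19 (limma, adjusted p = 0.00036). All double-KO libraries were above all Kmt2c-KO libraries at both times. F11r did not differ past the test at 8 h, but at 16 h it had 35.5, 32.9 and 39.4 CPM in double-KO cells, against 25.0, 21.7 and 21.9 CPM in Kmt2c-KO cells. Those groups did not overlap, and the log2 fold change was 0.63 ± 0.16 (limma, adjusted p = 0.0020). Cldn6 was lower in double-KO cells at 8 h, at a log2 fold change of -0.59 ± 0.24 (limma, adjusted p = 0.045), with overlapping libraries. That call was lost without Kmt2c-KO replicate 2 (adjusted p = 0.25) or 3 (0.068), or without double-KO replicate 2 (0.24), and with the libraries of the comparison alone (0.089).

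Many other genes also differed between the lines. At 8 h 1 of 8 members was higher and 2 were lower, where 37.6% of all genes tested were higher and 11.9% were lower in double-KO cells. At 16 h 2 members were higher and 1 was lower, where 40.0% of all genes were higher and 9.96% were lower. Libraries did not overlap in 1 member higher and 2 lower at 8 h, against 39.6% and 13.5% of all genes, and in 2 higher and 1 lower at 16 h, against 53.8% and 15.9%. The median over all genes was 0.31 at 8 h and 0.35 at 16 h, while the members' medians were -0.40 and -0.09. Scaling by median of ratios, which takes this shift out, lowered the median of all genes by 0.28 at 8 h and 0.32 at 16 h, and then 20.9% of all genes were higher and 21.3% lower at 8 h, and 20.7% higher and 20.8% lower at 16 h. Under that scaling Tjp1 was still higher, at 0.50 at 8 h (limma, adjusted p = 0.027) and 0.54 at 16 h (0.017), and Crb3 lower, at -2.25 and -1.72. Under it Cldn6, Cldn7 and Cgn were lower at 8 h, at -0.86, -0.78 and -0.84, Cldn6 was lower at 16 h, at -0.73, and F11r did not pass at 16 h, at 0.27 (adjusted p = 0.21). The marker lists differed between the same groups. In ethanol for 16 h the stem cell list was 6106 to 6269 CPM in double-KO cells against 11447 to 12029 CPM in Kmt2c-KO cells, and the primitive endoderm list 35.1 to 49.2 CPM against 2.54 to 3.65 CPM. The trophectoderm list was 65.6 to 69.0 CPM in double-KO cells against 40.7 to 47.7 CPM in Kmt2c-KO cells at 16 h, and overlapped at 8 h. The fibroblast list was 3.24 to 5.64 CPM in double-KO cells against 0.575 to 0.888 CPM in Kmt2c-KO cells at 16 h, and 3.44 to 4.26 CPM against 0.551 to 2.44 CPM at 8 h. These sums are also weighted to their highest genes, Dppa5a and Dab2 among them. The part of these lists in the results was not tested.

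**Figure D3:**
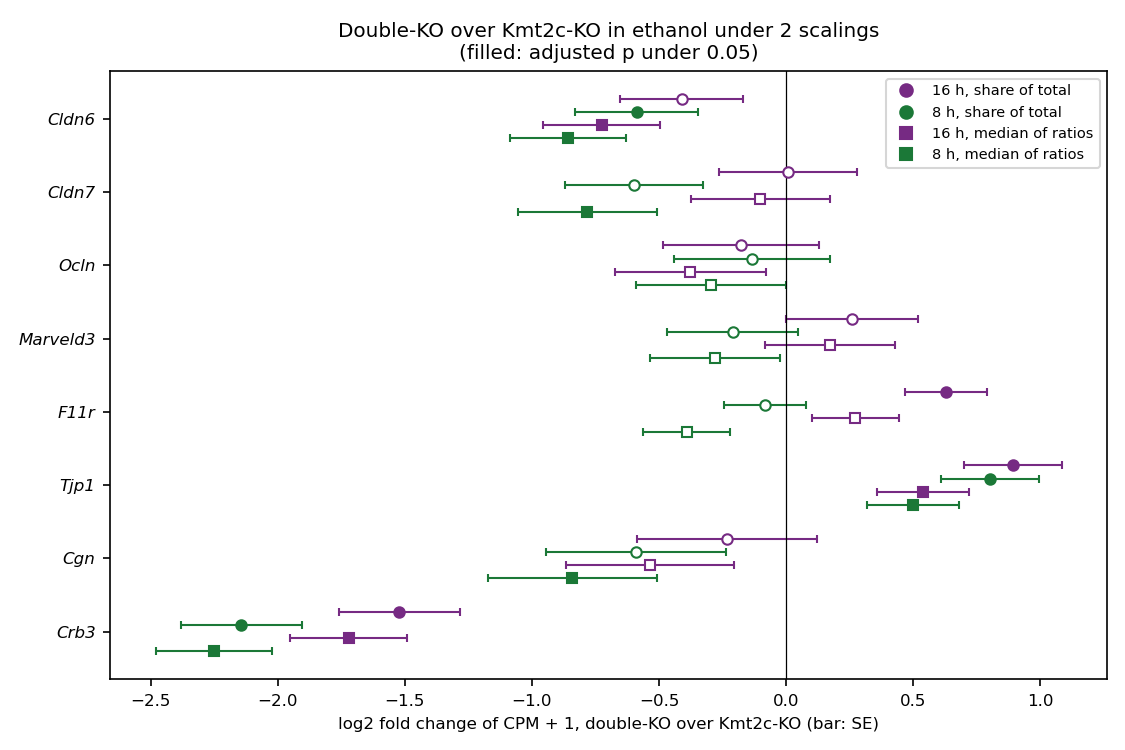
Log2 fold change of CPM + 1, double-KO over Kmt2c-KO GRHL2-ERT cells in ethanol (horizontal axis), of the 8 genes at 16 h (purple) and 8 h (green), scaled to the library total (circles) or by median of ratios (squares). Bars are SE and filled symbols passed the test; Crb3 is lower and Tjp1 higher under both scalings, while F11r at 16 h passes only under the first.

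The rest of the junction and polarity machinery was read from a list of 75 other genes, of which 47 were tested. In Kmt2c-KO cells at 8 h 3 of these 47 rose with tamoxifen and 0 fell, with a median log2 fold change of 0.115. Of all genes tested 2.92% rose and 2.04% fell. They were Cldn4 (0.75 ± 0.13, limma, adjusted p = 0.00068), Epcam (0.77 ± 0.15, 0.0014) and Prkcz, an atypical PKC of the PAR complex (0.76 ± 0.15, 0.0017). At 16 h 1 of 47, Cldn4, rose (0.66 ± 0.13, limma, adjusted p = 0.014), where 0.290% of all genes rose. None of the 13 other scaffold genes, 5 other adhesion genes, 3 other Crumbs genes or 5 Scribble genes tested passed in either of these comparisons, although under median-of-ratios scaling the scaffold gene Magi1 passed as lower at 8 h, at -0.51 (limma, adjusted p = 0.046).

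Epcam and Cldn4 rose in double-KO cells, where no member passed the test. Epcam, which codes for an adhesion protein that binds claudins, rose by 1.26 ± 0.15 at 8 h (limma, adjusted p = 3.1e-05) and by 1.08 ± 0.15 at 16 h (0.00030). Cldn4 rose by 0.92 ± 0.13 at 8 h (0.00074) and by 0.89 ± 0.13 at 16 h (0.0013). With GRHL2-ERT against without it, 4 of 47 were higher at 8 h (Cldn4, Prkcz, Epcam and the protease gene St14) and 3 of 47 at 16 h (Cldn4, Epcam and Amotl1), or 2 of 47 at 16 h under median-of-ratios scaling, without Amotl1. Of all genes tested 2.67% were higher at 8 h and 0.644% at 16 h, or 0.605% at 16 h under median-of-ratios scaling.

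Between the lines in ethanol, 16 of the 47 were higher and 10 lower in double-KO cells at 8 h, beside 37.6% and 11.9% of all genes. At 16 h 19 were higher and 2 lower, beside 40.0% and 9.96% of all genes. Under median-of-ratios scaling 9 were higher and 15 lower at 8 h, beside 20.9% and 21.3% of all genes. At 16 h 9 were higher and 6 lower under it, beside 20.7% and 20.8%. On the library total, their median log2 fold change was 0.28 at 8 h and 0.39 at 16 h, beside 0.31 and 0.35 over all genes. Of the 47, 6 were higher at both times and under both scalings. The share of all genes that met this rule was not counted, so the number does not set the list apart. The 6 genes were Mpdz, a PDZ scaffold (1.86 ± 0.25 at 8 h), Amot, an angiomotin of the junction (1.75 ± 0.25), and the PAR complex gene Pard3 (0.81 ± 0.12). The others were the PAR complex gene Pard3b (1.45 ± 0.24), the scaffold gene Magi3 (0.98 ± 0.16) and the claudin gene Cldn12 (0.81 ± 0.17). Of the 10 PAR complex genes, 5 were higher and 1 lower at 8 h, where 37.6% of all genes were higher and 11.9% lower, and 7 were higher and 0 lower at 16 h, where 40.0% were higher and 9.96% lower. Under median-of-ratios scaling 3 were higher and 1 lower at 8 h, beside 20.9% and 21.3% of all genes, and 4 higher and 0 lower at 16 h, beside 20.7% and 20.8%. The 10 list genes that were lower at 8 h passed as lower under both scalings, and the share of all genes that did so was not counted. By smallest p they were led by Epcam (-1.32 ± 0.15), Tjp3, a relative of Tjp1 (-1.33 ± 0.25), Cldn4 (-0.65 ± 0.13), the cingulin relative Cgnl1 (-1.25 ± 0.26), St14 (-0.77 ± 0.23) and Prkcz (-0.48 ± 0.15). At 16 h Epcam (-0.94 ± 0.15) and the adhesion gene Jam3 (-0.87 ± 0.21) were lower, also under both scalings.

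**Figure D4:**
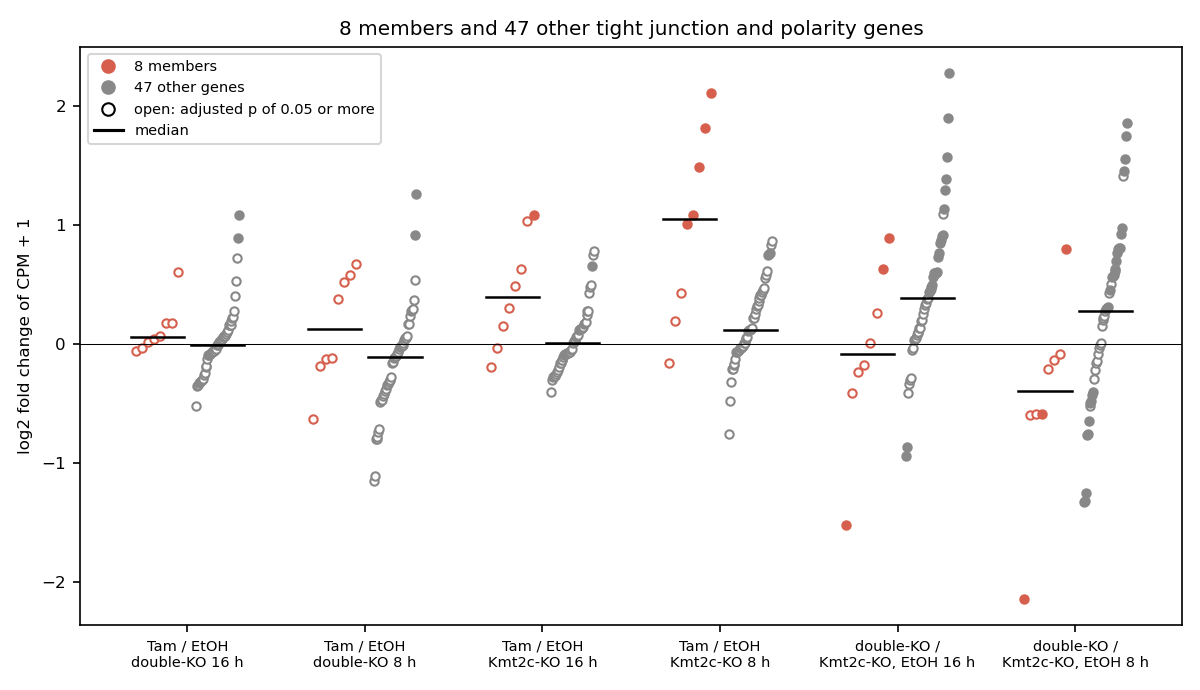
Log2 fold change of CPM + 1 (vertical axis) of the 8 members (red) and 47 other tight junction and polarity genes (grey) in 6 comparisons, ordered by value within each column. Filled points passed the test and bars are medians. With tamoxifen in Kmt2c-KO cells at 8 h the members' median is 1.05 and that of the other genes 0.115. Members and list were chosen with earlier results of these data known, so this contrast between them is no independent test.

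Over the 30 libraries the members fell into no single pattern. The closest pairs by Pearson correlation of log2(CPM + 1) were Cldn7 with F11r at 0.82, Cldn6 with Cgn at 0.78 and Cgn with Crb3 at 0.74. Tjp1 and Crb3 ran opposite, at -0.74, and Ocln had no correlation with another member beyond -0.22. These values describe libraries that share groups and clones, with n = 30, and carry no test. The genes most like each member were sought only among genes above a limit on mean level, with some provisional gene symbols left out. Low genes, such as Marveld3 and Ocln, could therefore not be named as the closest gene. Among the genes searched, the closest were Pdlim2 for Cldn6 (0.87), Prkcz for Cldn7 (0.93), Gcnt1 for Cgn (0.88) and Dppa3 for Crb3 (0.96). They were Wwtr1 for Tjp1 (0.93), Ctr9 for F11r (0.96) and Sord for Marveld3 (0.81). The closest gene searched to Ocln was Mxi1, at 0.52.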

How the data were processed

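The table held 30 library columns of log2 values for 12428 genes, 3 libraries in each of 10 groups. The deposited values were the log2 of CPM plus an offset of 0.125, as read from the values. Salmon, DESeq2 1.34.0 and mm10 are listed in the submitters' processing notes, with no step given. Columns carry short line names, and since in the samples used here only lines with GRHL2-ERT have ethanol libraries, the treatments show which columns have it. CPM were recovered from the table, and log2(CPM + 1) was fitted in limma 3.58.1 (R 4.3.3), with one mean per group over all 30 libraries, with trend and robust moderation and 20 residual degrees of freedom. A gene entered the test (12414 did, 14 did not) if its mean reached 1 CPM in any group, and p was adjusted by Benjamini-Hochberg, two-sided, with a threshold of 0.05 in each of 14 contrasts. No count model was run because the deposited values are log2. Depth was recovered from read steps, with 95.9% to 97.6% of values under 1.5 CPM whole within 0.05 reads. The test was checked on simulated data with independent errors, which hold no clone effect and no group that stands apart. The members, lists and tests were chosen with earlier results of these data known. One gene of the list of other junction genes is not reported here. All 8 members are named, and of the other list genes those past the test (6 in each direction between lines at most). Alternatives were pseudocounts of 0.1 and 5 CPM, no filter, median-of-ratios scaling, the contrast's libraries alone, a replicate block, array weights and leaving out each library. Leaving out the libraries that stood apart was added after seeing the data. CPM of 3′ tags were not divided by length, so levels were not compared between genes.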

Additional observations from a re-analysis of the deposited data

Results flagged for a closer look

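The response of Cgn to tamoxifen differed between the lines at 8 h, at -2.74 ± 0.50 on the log2 scale, double-KO minus Kmt2c-KO (limma, adjusted p = 0.0044). Every tamoxifen library of Kmt2c-KO cells was above every ethanol library, while in double-KO cells the groups overlapped. The response of Cldn6 differed in the same direction, at -1.44 ± 0.34 (limma, adjusted p = 0.029). Cgn passed in all 12 fits that left out 1 library, and Cldn6 in 5 of 12. With the libraries of the comparison alone neither gene passed (limma, adjusted p = 0.30 for Cgn and 0.31 for Cldn6), nor with array weights (0.23 and 0.80). The part of the Grhl2 tag level, which was 78.3 CPM in double-KO and 170 CPM in Kmt2c-KO cells in tamoxifen, was not tested.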

How the results depend on the processing

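Over all members, contrasts and alternatives, 1721 values were recomputed, of which 1563 kept their direction and their side of the threshold, 44 lost a call, 31 gained one, 83 uncalled values changed sign and 0 called values did. The counts of members called below are out of 8. A pseudocount of 0.1 CPM left 2 calls for tamoxifen over ethanol in Kmt2c-KO cells at 8 h, 1 for the difference of responses at 8 h, and 2 at 8 h and 1 at 16 h for tamoxifen with over without GRHL2-ERT. A pseudocount of 5 CPM gave 4 for the difference of responses at 8 h, 1 with over without GRHL2-ERT at 16 h and 2 for 16 h minus 8 h in Kmt2c-KO cells. It shrinks the response of a low level more, which can by itself make responses from unlike levels differ. The libraries of a contrast alone gave 2 for Kmt2c-KO at 16 h, 0 for the difference of responses at 8 h and 2 with over without GRHL2-ERT at 16 h. Array weights, whose estimate stopped short of its tolerance, gave 2, 0 and 3 for the same contrasts and 1 for the difference of responses at 16 h. Median-of-ratios scaling gave 5 for the lines in ethanol at 8 h, and 4 with over without GRHL2-ERT at 8 h, where F11r was lost. Without the libraries that stood apart, 1 was called with over without GRHL2-ERT at 16 h, and the double-KO response at 8 h, its difference from Kmt2c-KO and its difference from 16 h could not be fitted.

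Replicate numbers did not pair the libraries: over 12 same-numbered pairs of tamoxifen and ethanol the correlation of deviations was -0.576 to 0.126, 1 pair was over 0.1, and 2 tamoxifen libraries were closest to their own number. With a replicate block the count was 0 for Kmt2c-KO at 16 h and 1 for the difference of responses at 8 h, where Cldn6 was lost in both (adjusted p 0.092 and 0.059). It was 4 with over without GRHL2-ERT at 8 h, where F11r was lost (0.10), and 2 for the lines in ethanol at 8 h, where Cldn6 was lost (0.053).

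Leaving out 1 library at a time gave 4 to 5 calls for Kmt2c-KO at 8 h and 0 at 16 h in each of 6 fits, 0 to 2 for double-KO at 8 h, 1 to 3 for the difference of responses at 8 h, 2 to 4 for the lines in ethanol at 8 h and 3 at 16 h, and 3 to 4 with over without GRHL2-ERT at 8 h. The cause of these changes was not tested. Low reads limit Crb3 in double-KO cells, Marveld3, and Cldn7 at 16 h.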

Other observations

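Levels of some members differed between the times also in ethanol, and this was not tested. In Kmt2c-KO GRHL2-ERT cells in ethanol F11r was 22.8 ± 1.86 CPM at 16 h and 50.9 ± 8.17 CPM at 8 h, and Cldn7 was 0.479 ± 0.370 CPM at 16 h and 2.59 ± 0.211 CPM at 8 h (SD, n = 3 each). In double-KO cells in ethanol F11r was 35.9 ± 3.28 CPM at 16 h and 47.7 ± 3.83 CPM at 8 h, and Cldn7 was 0.468 ± 0.268 CPM at 16 h and 1.39 ± 0.410 CPM at 8 h. Tjp1 did not share this, at 18.2 ± 1.09 CPM at 16 h and 16.0 ± 2.68 CPM at 8 h in Kmt2c-KO cells in ethanol. Time of treatment and time of harvest cannot be told apart.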
